A study of Homo sapiens with 6 samples.

Results

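INA-6 is an established multiple myeloma (MM) cell line grown with interleukin-6, and 46 developmental transcription factors were followed in it under EZH2 inhibition. The 46 genes are homeobox genes outside the HOX clusters together with PAX genes. They were taken by symbol from the probe annotation, as a list drawn up with earlier results of these data known. All 46 had a transcript cluster of their own, 1 cluster for each, among the 21921 genes and 65529 clusters measured. Total RNA was hybridized to 6 Affymetrix arrays. For 3 of them cells had been grown with UNC1999, which inhibits EZH2, and for the other 3 with UNC2400, its inactive analogue, each at 1 μM for 120 hours with medium and compound renewed at 72 hours. All samples are of 1 cell line, so the spread within a group is not that between patients, and in whole cultures fewer expressing cells and less RNA per cell cannot be told apart.

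EZH2 is the enzyme of Polycomb repressive complex 2 (PRC2), which methylates lysine 27 of histone H3. Homeobox factors bind DNA through a helix-turn-helix domain, the homeodomain, and PAX factors through a paired domain, to which some add a homeodomain. Each sets up organs or regions of the embryo, among them brain, eye, kidney, limb and heart. In most adult tissues these genes are silent, and their CpG-rich promoters are textbook sites of PRC2 and H3K27 trimethylation. Blood cells use few of them, with MEIS1 in haematopoietic stem cells and PAX5, a B cell factor outside the list, as known cases. The comparison of UNC1999 with UNC2400 therefore asks whether genes of this kind change when the methyltransferase is inhibited.

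None of the 46 genes passed an adjusted p of 0.05 (limma, Benjamini-Hochberg over all clusters), while 9.39% of all clusters and 16.5% of all genes did. At an unadjusted p below 0.05 there were 9 of the 46, all 9 with higher values in UNC1999 (SIX2, DLX2, MSX1, MSX2, EMX1, EN1, GBX2, IRX1 and IRX4), against 32.7% of all genes. That count was 16 without UNC1999 replicate 3, and 4 without UNC1999 replicate 1 or without UNC1999 replicate 2. With the dimmer clusters left out it was 4 of the 37 genes still tested. The share of all genes was not computed in these settings. When a 1.5-fold change was required together with an unadjusted p no higher than 0.02, as in the methods of the study, none of the 46 was left, against 2.38% of all genes. The largest differences were those of SIX2 (1.16-fold), DLX2 (1.13-fold) and MSX1 (1.09-fold). The bounds are narrow on the array scale. For 44 of the 46 genes the upper end of the 95% interval lay below a 1.2-fold rise, and for 31 below 1.1-fold. SIX2 and DLX2 were the other 2, with upper ends of 1.29-fold and 1.25-fold. In the direction of a fall, the lowest end over the 46 intervals was a ratio of 0.893, that of EN2.

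Signals of the 46 genes lay in the lower part of the scale of the array, where the median over all genes, 5.50, lay too. Means over the 6 arrays ran from 4.49 for LHX9 to 6.48 for MEIS2, with a median of 5.38, whereas the lowest single value on any array was 4.22 and the median cluster stood at 4.85. A mean at or below that median was found for 9 of the 46 genes. The files give no detection call, so the level at which a gene is off is not known from them, and probes differ in brightness, so the order of 2 genes is not an order of transcript amount. As a reference, 27 genes of tissues unrelated to plasma cells, such as liver, heart, skin, lung and eye, had means from 4.31 to 5.70 with a median of 5.21. Of these, 1 rose (TTN) and 1 fell (OPN1SW), where 16.5% of all genes passed the adjusted p. Near the floor of an array a true fold is compressed, so a small change in a dim gene can be larger in RNA than it is here.

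Other genes of this range of levels served as a background. Genes whose UNC2400 mean lay between 4.47 and 6.48, the range spanned by the 46 genes, numbered 13202. Of those, 13.4% passed the adjusted p, 9.43% as higher values, and 120 rose at least 1.5-fold, 114 of them past the adjusted p. This band was set after the levels had been seen.

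**Figure D1:**
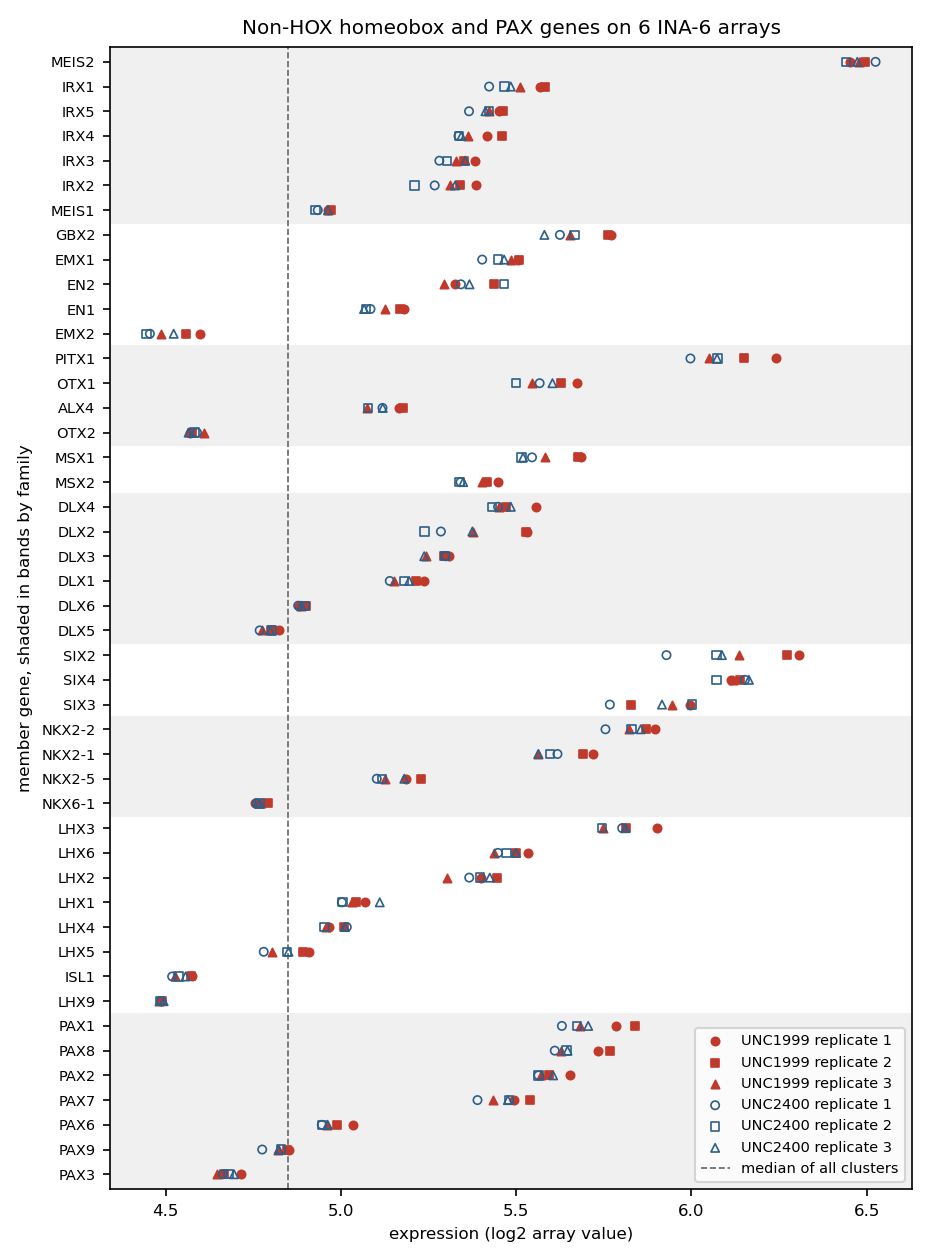
Log2 array value (x axis) of each of the 46 genes (y axis, shaded by family) on the 3 UNC1999 arrays (filled) and the 3 UNC2400 arrays (open); the dashed line is the median cluster, 4.85. The values of the groups overlap for 37 of the 46 genes, and UNC1999 replicate 3 is the lowest UNC1999 array for 39. Of all 21921 genes, every UNC1999 array was higher in 5282 and lower in 3014. Replicate 3 was the lowest for 11139 of them and for 22 of the 27 tissue genes of other lineages.

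SIX2, SIX3 and SIX4 encode DNA-binding partners of the EYA phosphatases. SIX2, which maintains nephron progenitors in the kidney, read 6.31, 6.27 and 6.14 with UNC1999 (replicates 1, 2 and 3) and 5.93, 6.07 and 6.09 with UNC2400. Every UNC1999 array was above every UNC2400 array, by little for replicate 3. The log2 difference was 0.21 ± 0.06 (SE, n = 3 each, limma adjusted p = 0.110). It did not pass in any of 13 other settings (limma adjusted p from 0.0537 to 0.288). SIX3, a factor of forebrain and eye whose gene is the direct neighbour of SIX2 on chromosome 2, read 5.99, 5.83 and 5.95 against 5.77, 6.00 and 5.92. Its groups overlapped fully, with a difference of 0.03 (interval -0.15 to 0.21, limma adjusted p = 0.893). SIX4, a muscle factor, read 6.11, 6.14 and 6.12 against 6.15, 6.07 and 6.16, again overlapping (interval -0.08 to 0.07, limma adjusted p = 0.945).

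DLX genes stand in pairs and pattern the forebrain, the jaw and the limb. DLX2, a factor of forebrain interneurons, read 5.53, 5.53 and 5.38 with UNC1999 and 5.29, 5.24 and 5.38 with UNC2400. Replicate 3 of both groups stood at 5.38 and the UNC1999 value was the higher only beyond the second decimal, so the groups barely separated. The log2 difference was 0.18 ± 0.06 (SE, n = 3 each, limma adjusted p = 0.125), and it rested on UNC1999 replicates 1 and 2. Without UNC1999 replicate 3 it was 0.23 and passed (limma adjusted p = 0.0426). DLX1, its direct neighbour on chromosome 2, differed by 0.03. DLX3 and DLX4, neighbours on chromosome 17 that act in skin and placenta, differed by 0.0042 and 0.04. DLX5 and DLX6, neighbours on chromosome 7 that act in bone and limb, differed by 0.01 and 0.0010. Adjusted p over the 6 DLX genes ran from 0.125 to 0.985 in limma.

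MSX1 and MSX2 encode repressors that act in tooth, skull and limb buds. MSX1 read 5.69, 5.68 and 5.58 with UNC1999 against 5.55, 5.52 and 5.52 with UNC2400, without overlap. The log2 difference was 0.12 ± 0.03 (SE, n = 3 each, limma adjusted p = 0.0793). MSX2 read 5.45, 5.42 and 5.40 against 5.34, 5.34 and 5.35, also without overlap, a difference of 0.08 ± 0.02 (SE, n = 3 each, limma adjusted p = 0.0571). EN1, a factor of the midbrain and hindbrain border, read 5.18, 5.17 and 5.12 against 5.08, 5.07 and 5.07, a difference of 0.08 ± 0.02 (SE, n = 3 each, limma adjusted p = 0.0651). MSX2 and EN1 are set out here because their adjusted p were the lowest of the list, a choice made after seeing the values. With 1 cluster per gene fitted, 21921 tests in place of 65529, MSX1, MSX2 and EN1 passed (limma adjusted p = 0.0463, 0.0355 and 0.0401), where 21% of all genes did. With the dimmer clusters left out none of the 3 passed (limma adjusted p = 0.0867, 0.167 and 0.155).

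The promoters are shown for the genes with the largest differences and the lowest p, and for LHX9, which had the lowest mean and did not separate, because a reader can see in them the CpG dinucleotides of such promoters. Each run is the 250 bases before the start site, 5′ to 3′ on the strand of the gene, from RefSeq (build GRCh38.p14), with every CG dinucleotide in capitals. SIX2 lies on the minus strand at chr2:45009453-45009702 and DLX2 on the minus strand at chr2:172102901-172103150. MSX1 lies on the plus strand at chr4:4859415-4859664, MSX2 on the plus strand at chr5:174724332-174724581 and LHX9 on the plus strand at chr1:197912214-197912463. EN1 had no promoter in that table.
SIX2: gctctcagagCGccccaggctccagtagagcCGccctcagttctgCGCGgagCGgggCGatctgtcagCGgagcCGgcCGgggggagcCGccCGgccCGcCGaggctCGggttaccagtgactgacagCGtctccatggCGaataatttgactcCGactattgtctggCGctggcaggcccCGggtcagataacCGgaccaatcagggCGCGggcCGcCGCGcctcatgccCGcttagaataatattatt
DLX2: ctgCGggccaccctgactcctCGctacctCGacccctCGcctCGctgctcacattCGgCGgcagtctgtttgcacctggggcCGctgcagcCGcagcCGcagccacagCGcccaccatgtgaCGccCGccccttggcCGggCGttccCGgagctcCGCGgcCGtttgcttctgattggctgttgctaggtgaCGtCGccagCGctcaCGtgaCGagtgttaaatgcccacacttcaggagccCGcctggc
MSX1: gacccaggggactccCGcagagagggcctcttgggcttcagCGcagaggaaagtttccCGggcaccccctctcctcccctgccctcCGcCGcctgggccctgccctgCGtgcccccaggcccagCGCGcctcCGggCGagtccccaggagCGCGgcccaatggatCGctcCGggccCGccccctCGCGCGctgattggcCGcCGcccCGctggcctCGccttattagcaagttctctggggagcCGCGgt
MSX2: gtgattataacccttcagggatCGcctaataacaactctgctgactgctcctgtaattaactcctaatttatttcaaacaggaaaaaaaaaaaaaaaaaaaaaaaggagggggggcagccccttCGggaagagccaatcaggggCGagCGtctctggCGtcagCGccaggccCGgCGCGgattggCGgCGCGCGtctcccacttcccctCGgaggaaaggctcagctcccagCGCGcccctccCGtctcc
LHX9: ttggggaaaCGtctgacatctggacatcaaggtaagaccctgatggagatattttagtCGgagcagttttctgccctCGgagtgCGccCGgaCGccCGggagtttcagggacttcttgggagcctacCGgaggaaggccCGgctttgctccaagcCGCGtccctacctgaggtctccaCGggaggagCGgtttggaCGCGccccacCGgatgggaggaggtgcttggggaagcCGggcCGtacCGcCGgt

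These windows held 26 (SIX2), 25 (DLX2), 24 (MSX1), 17 (MSX2) and 20 (LHX9) CG dinucleotides. Promoters of 33 of the 46 genes were matched by symbol. Of those 33, 28 (84.8%) had a GC content of at least 50% and an observed to expected CpG ratio of at least 0.6, against 44.9% of all 27305 promoters in the table, 60.3% of the 15172 of genes measured here and 3 of 18 promoters of the tissue genes. The number of CG dinucleotides ran from 7 for OTX2 to 45 for EN2, with a median of 24. Over the 33 genes it had little relation to the log2 difference (Pearson r = 0.07, Spearman rho = 0.12, across genes that share the 6 arrays). A count of letters says nothing of the histone marks on these promoters in INA-6, which were not measured here.

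**Figure D2:**
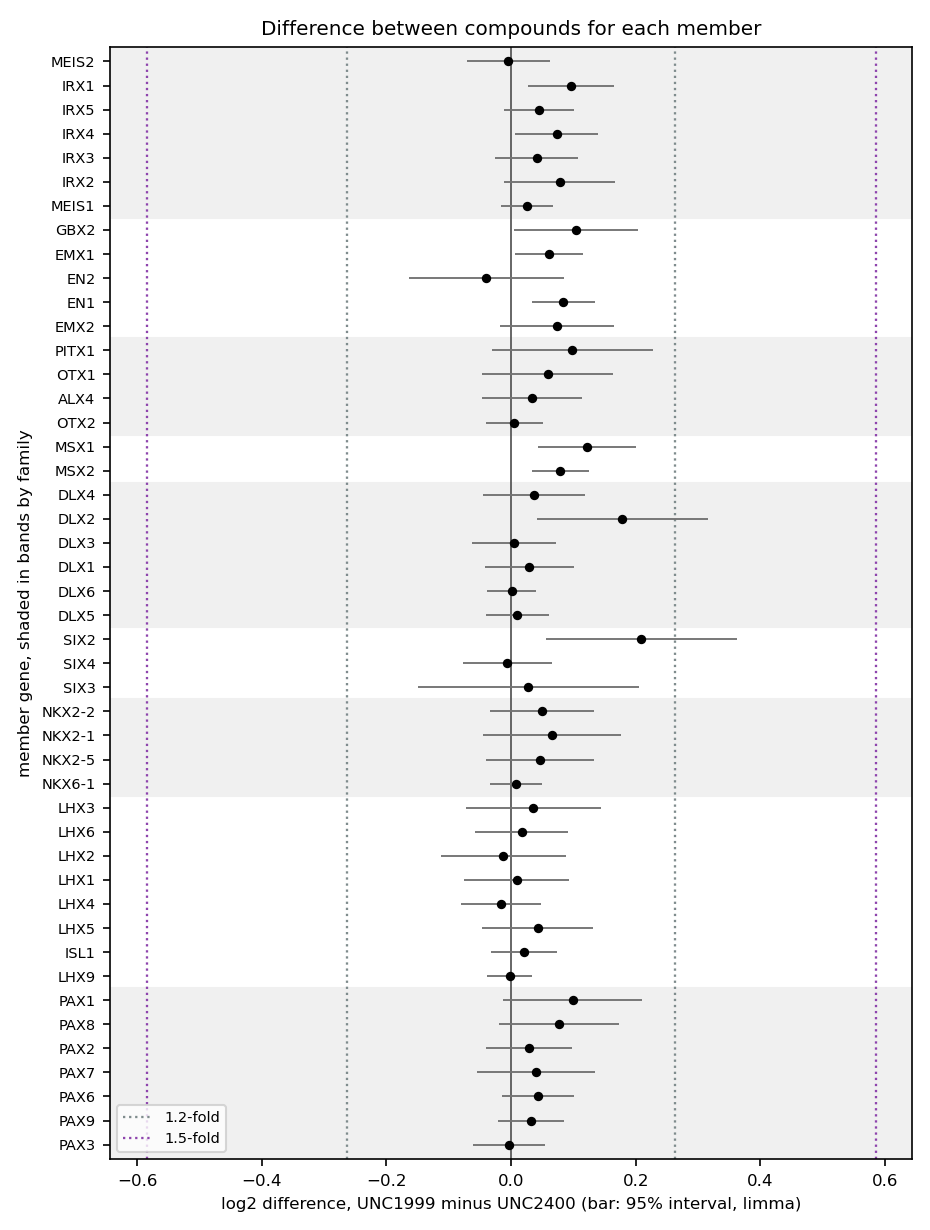
Log2 difference between UNC1999 and UNC2400 (x axis; points are estimates and bars 95% intervals from limma, n = 3 arrays each) for each of the 46 genes (y axis, shaded by family); dotted lines mark 1.2-fold and 1.5-fold. No interval reaches 1.5-fold, and those of SIX2 and DLX2 alone cross 1.2-fold.

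The 7 PAX genes of the list differed by -0.0039 to 0.10, with 6 above 0. PAX1 and PAX9, which act in the vertebral column and PAX9 also in teeth, differed by 0.10 and 0.03. PAX2 and PAX8, kidney factors of which PAX8 also acts in the thyroid, differed by 0.03 and 0.08. PAX8 passed without UNC1999 replicate 3 (0.12, limma adjusted p = 0.0455) and had an adjusted p of 0.338 with all arrays. PAX3 and PAX7, which act in neural crest and muscle stem cells, differed by -0.0039 and 0.04, and PAX6, the eye and forebrain factor, by 0.04. Adjusted p over the family ran from 0.286 to 0.959 in limma.

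LIM homeobox factors, which work with the adaptor LDB1 and specify neurons, pituitary, gonad and heart cells, lay closest to 0. The 8 genes (LHX1, LHX2, LHX3, LHX4, LHX5, LHX6, LHX9 and ISL1) had differences from -0.02 to 0.04, a median of 0.01 and adjusted p from 0.60 to 0.963 in limma. LHX2, LHX4 and LHX9 were below 0. LHX9, a gonad factor, was at 4.49 in both groups, with SDs of 0.0038 for UNC1999 and 0.0054 for UNC2400 (n = 3 each). ISL1, a factor of motor neurons and of the heart, stood at 4.56 against 4.54.

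NKX factors mark single organs. NKX2-1, of lung and thyroid, differed by 0.07, NKX2-2, of spinal cord and pancreas, by 0.05, NKX2-5, of the heart, by 0.05 and NKX6-1, of pancreatic beta cells, by 0.01, with adjusted p from 0.497 to 0.864 in limma. NKX2-2 and PAX1 are direct neighbours on chromosome 20, and NKX2-1 and PAX9 lie on chromosome 14 with 1 coding gene between them.

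Of the factors with a paired-like homeodomain, PITX1, which directs the identity of the hindlimb, read 6.24, 6.15 and 6.05 with UNC1999 and 6.00, 6.07 and 6.07 with UNC2400. UNC1999 replicate 3 fell within the UNC2400 values, and the difference was 0.10 ± 0.05 (SE, n = 3 each, limma adjusted p = 0.367). OTX1 and OTX2, forebrain factors, differed by 0.06 and 0.0050, and ALX4, a skull factor, by 0.03. EMX1 and EMX2, of the cerebral cortex, differed by 0.06 and 0.07 and GBX2, of the hindbrain, by 0.10. EN2, the paralogue of EN1, was the lowest of the list with -0.04 (limma adjusted p = 0.753). Its values with UNC1999 (5.33, 5.44 and 5.29) overlapped those with UNC2400 (5.34, 5.47 and 5.37).

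TALE homeobox factors carry a homeodomain with a loop of extra residues. The 5 IRX genes of the list, which pattern the neural tube and the heart, form groups on 2 chromosomes. IRX1, IRX2 and IRX4 on chromosome 5 differed by 0.10, 0.08 and 0.07, and IRX3 and IRX5 on chromosome 16 by 0.04 each, with adjusted p from 0.102 (IRX1) to 0.481 (IRX3) in limma. MEIS1, which blood stem cells and some leukaemias depend on, read 4.96, 4.97 and 4.96 with UNC1999 and 4.93, 4.93 and 4.96 with UNC2400, a difference of 0.03 (n = 3 each, limma adjusted p = 0.496). MEIS2, its paralogue and the brightest cluster of the list, read 6.45, 6.50 and 6.48 against 6.53, 6.44 and 6.47. Its groups overlapped, with an interval of -0.07 to 0.06 (limma adjusted p = 0.963).

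Although no single gene passed, 39 of the 46 means were higher with UNC1999, with a median difference of 0.04 against 0.01 over all genes. The share was 84.8%, beside 62.9% of all genes and 66.8% of the genes in the same band of levels. The 27 tissue genes of other lineages showed a like count, 23 of 27 (85.2%), with a median of 0.01. So did the 43 related homeobox genes outside the list, described below, with 38 of 43 (88.4%) and a median of 0.04. The count of list genes also moved with the scale chosen, to 33 of 46 with cyclic loess, 36 with arrays centred on their medians and 37 with quantile normalization. In 9 of the 46 genes (SIX2, DLX2, MSX1, MSX2, EMX1, EN1, IRX1, IRX4 and MEIS1) every UNC1999 array was above every UNC2400 array, 19.6% against 24.1% of all genes, and in none was it the reverse.

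UNC1999 replicate 3 did not share this lean. Over the 46 genes, the median distance from the UNC2400 mean was 0.07 for UNC1999 replicate 1, 0.05 for replicate 2 and -0.0015 for replicate 3, while the UNC2400 arrays lay between -0.02 and 0.02. UNC1999 replicate 1 was above all UNC2400 arrays for 35 genes, replicate 2 for 31 and replicate 3 for 11. Of all 21921 genes, these counts were 10483, 10250 and 7398. Over all genes the same medians were 0.02, 0.02 and 0.00092, and over the tissue genes 0.02, 0.04 and -0.0030, so that replicate 3 was the lowest of the 3 there too. Without UNC1999 replicate 3, 4 of the 46 genes (PAX8, DLX2, MSX1 and EN1) passed, where 9.94% of all clusters did. Without any other single array none passed. The part of this array in the result beyond these values was not tested.

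**Figure D3:**
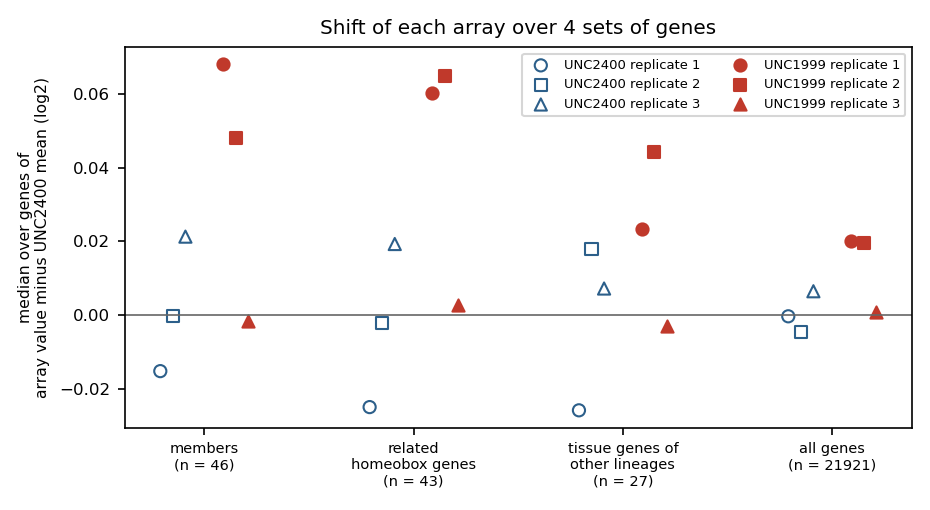
Median over genes of the array value minus the UNC2400 mean of the gene (y axis, log2), for each of the 6 arrays and 4 sets of genes (x axis, with the number of genes). UNC1999 replicates 1 and 2 lie above the UNC2400 arrays in every set and replicate 3 lies among them, at -0.0015 for the 46 genes.

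Homeobox genes that belong to the same or sister families but are not on the list were examined beside them, as a set. It left out PBX, PKNOX and TGIF genes, which are TALE homeobox genes too and are counted with the cofactors below. Among the 43 genes of the set with a cluster, 3 were higher, none lower and 40 were not called, where 16.5% of all genes were called. The median difference of the set was 0.04. LHX8, a LIM factor of oocytes and forebrain neurons, read 7.18, 7.13 and 7.18 with UNC1999 and 6.92, 6.80 and 6.74 with UNC2400. The NKX1-1 values were 6.50, 6.47 and 6.48 against 6.26, 6.33 and 6.27, and those of GSX1 6.50, 6.49 and 6.48 against 6.26, 6.35 and 6.28. No groups overlapped. LHX8 was 1.27-fold, NKX1-1 1.14-fold and GSX1, a forebrain factor, 1.14-fold higher (limma adjusted p = 0.0123, 0.00914 and 0.0131). LHX8 lost its call without UNC1999 replicate 1 (limma adjusted p = 0.0528) and GSX1 without any of 3 arrays (up to 0.0609).

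Genes for proteins that homeobox and PAX factors work with included several that passed. Among 22 such cofactors there were 9 rises and no falls, and 13 were not called, where 16.5% of all genes were, with a median difference of 0.09. PBX, PKNOX and TGIF genes are themselves TALE homeobox genes, so PBX2, PBX3, PKNOX1 and TGIF1 among these rises are homeobox genes outside the list. PBX proteins bind DNA together with MEIS and HOX proteins. PBX3 read 5.90, 5.95 and 5.97 with UNC1999 and 5.26, 5.22 and 5.25 with UNC2400, a 1.63-fold rise (limma adjusted p = 0.000576). PBX2 read 7.80, 7.90 and 7.84 against 7.29, 7.21 and 7.29, a 1.5-fold rise (limma adjusted p = 0.00147). The groups of both genes lay far apart, and UNC1999 replicate 3 stood with the other UNC1999 arrays.

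Groucho-family corepressors are recruited by many homeobox and PAX factors. TLE1 read 6.26, 6.15 and 6.17 against 5.41, 5.45 and 5.48, a 1.68-fold rise (limma adjusted p = 0.000742), and TLE5, a short member that lacks the repeat domain of the others, read 8.36, 8.38 and 8.39 against 7.82, 7.80 and 7.87, a 1.46-fold rise (limma adjusted p = 0.000694). TLE2, TLE3 and TLE4 did not pass (differences of 0.03, -0.03 and 0.05). LDB1, which joins LIM homeobox factors into complexes, rose 1.68-fold (limma adjusted p = 0.00328). Of the others that rose, TGIF1 (1.11-fold) kept its call with each array left out but not with the replicate block (limma adjusted p = 0.0520), and PKNOX1, EYA2 and PAXIP1 (1.11-fold, 1.15-fold and 1.18-fold) did not, with adjusted p up to 0.0769, 0.0678 and 0.0905. These 4 and LDB1 are named after their values were seen.

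Homeobox genes that blood cells do use moved in both directions. Among 18 with a cluster there were 4 rises and 3 falls, and 11 were not called, beside the same 16.5% of all genes. SATB1, a chromatin organizer of lymphocytes, read 5.53, 5.56 and 5.62 with UNC1999 and 4.79, 4.82 and 4.84 with UNC2400, a 1.68-fold rise (limma adjusted p = 0.000576). HHEX, a factor of blood and liver progenitors, rose 1.2-fold, ZFHX3 1.11-fold and CUX1 1.12-fold. POU2F2, the B cell factor OCT2, had means of 7.81 and 8.07 without overlap of the arrays. It fell by 0.26 on the log2 scale, ZEB1 by 0.25 and HMBOX1 by 0.24. Adjusted p of these 6 genes ran from 0.0138 to 0.0341 in limma. SATB1 alone of these 7 kept its call with each array left out (the others with limma adjusted p up to 0.0622 to 0.125).

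**Figure D4:**
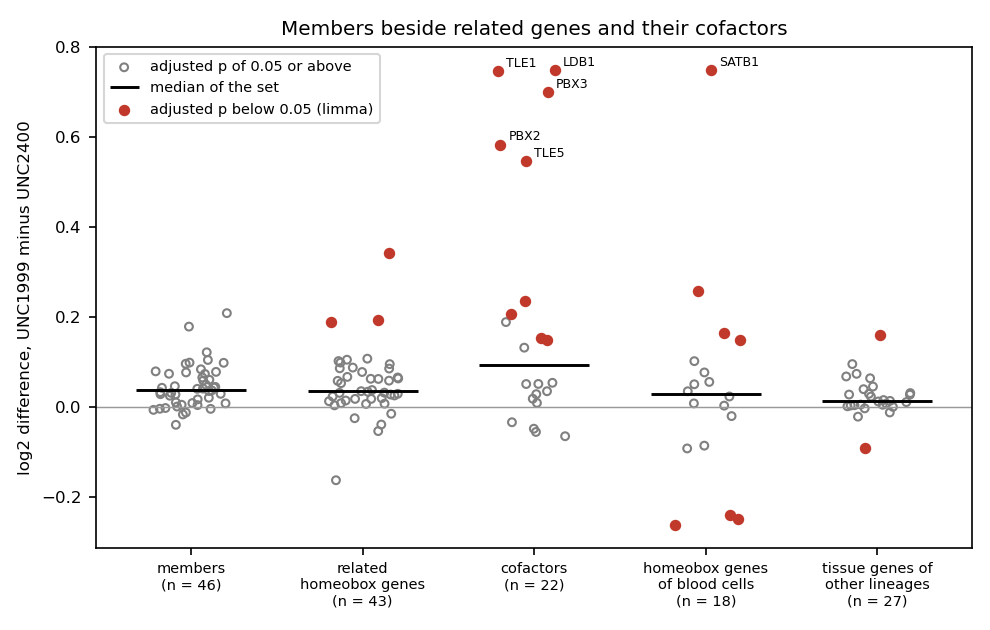
Log2 difference between UNC1999 and UNC2400 (y axis) of single genes in 5 sets (x axis, with the number of genes); filled points passed an adjusted p of 0.05 in limma and bars are medians of the sets. None of the 46 list members is filled, while 9 of 22 cofactors and 7 of 18 homeobox genes of blood cells are, beside 16.5% of all genes called.

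Arrays of the same group correlated with r of at least 0.994 over all clusters, arrays of different groups with at most 0.988. All 10 plasma cell markers were measured, of which 8 fell, 1 rose (CD38) and 1 did not pass, where 16.5% of all genes passed. JCHAIN and IRF4 stood at 10.3 and 10.5 with UNC2400. Of markers of other cells, CD3E (1 of 6 for T cells, from 5.07 to 5.38) and CD68 (1 of 5 for monocytes, from 6.59 to 6.91) rose, and none of 2 erythroid and 5 stromal markers passed, although HBB was lower on every UNC1999 array (log2 difference -0.13, limma adjusted p = 0.0837). The mean of EZH2 itself was 8.04 (SD 0.10) in the UNC1999 arrays against 7.85 (SD 0.05) in the others (n = 3 each, limma adjusted p = 0.0990). By qPCR and Western blot, the study reports lower EZH2 mRNA and protein with UNC1999 in MM cell lines, INA-6 among them. Its control there was DMSO, and the arrays, with UNC2400 as control, did not show that fall. Also against DMSO, the study reports less global H3K27 trimethylation with UNC1999 in MM cell lines, and less of the mark at microRNA genes in INA-6.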

How the data were processed

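Gene expression of INA-6 cells was measured on 6 Affymetrix arrays, 3 for UNC1999 and 3 for UNC2400, with groups and replicate numbers taken from the labels. The study text names DMSO as control, and the labels, which were followed, name UNC2400. The deposited values are log2 expression per cluster, made by the authors with GeneSpring 13. How they were summarised and normalized, and on which genome build, was not given in the sources used. Row identifiers were named through the platform annotation, with symbols updated through RefSeq (GRCh38). Of 65529 clusters, 23129 had 1 symbol, 1221 several and 41179 none, and only single symbols stood for genes. Clusters are taken as gene-level values although their identifiers have the form of junction identifiers. A gene on several clusters was represented by the one with the highest mean.

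Differences were tested with limma 3.58.1 (R 4.3.3) (two-sided) on all clusters, with no term but the group and a Benjamini-Hochberg threshold of 0.05. The fit was checked on simulated arrays. The rule for values per array took members past a threshold (none), the 5 with the highest means and the 3 with the largest differences. MSX2, EN1, EN2 and MEIS1 were added after their values were seen. From each related list it named up to 4 genes that rose and 4 that fell, with the smallest p. Of 92 related genes listed, 83 had their own cluster. Alternatives were a replicate block, 3 normalizations, 2 filters on clusters, another prior variance, other rules for choosing a cluster, other thresholds and leaving out each array. Cyclic loess and the band of levels were added after seeing the data. Members and lists were chosen with earlier results of these data known. Labels call the arrays biological replicates without naming their source, so p-values measure only the spread between these samples. The number of arrays limits the precision.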

Additional observations from a re-analysis of the deposited data

How the results depend on the processing

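The count of list genes past the adjusted p was also 0 in 11 of 13 alternative fits, of which the fit without the dimmer clusters tested only 37. It was 3, all higher, with 1 cluster per gene, where 21% of all genes were called. At an adjusted p below 0.1 it was also 3, all higher, where 8990 of 65529 clusters were called. With 1 array left out it was between 0 and 4. The 4, all higher, came without UNC1999 replicate 3, where 9.94% of all clusters were called. None passed the thresholds of the study in any fit, where 1072 of 65529 clusters did with all arrays. At a fold of 1.2 none passed either, where 4427 clusters did. The largest fold of the list, 1.16 for SIX2, settled that count beforehand. The median difference of the list stayed between 0.02 and 0.06. All clusters called were 6154 with all arrays and 6513 without UNC1999 replicate 3. Without any other single array they ranged from 2914 (without UNC1999 replicate 2) to 4903 (without UNC2400 replicate 2). Fits that called fewer clusters were also less able to call a list gene, so a count of 0 in them is no separate check.

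The study names no pairing in its methods for the arrays, so the numbers were not taken as pairs. Its section on statistics names a paired t-test without saying for which data. Deviations of same-numbered arrays correlated at 0.06, 0.08 and -0.01, and those of differently numbered arrays at -0.08 to 0.03. With the replicate number as a block, 0 list genes, 4262 clusters and 11 of the related genes passed, against 19 related genes without it, of which 6 against 9 were cofactors and 2 against 7 blood cell genes. With 1 array left out, the related genes called ranged from 9 (without UNC1999 replicate 1) to 19. They were 10 without UNC1999 replicate 2, 11 without UNC2400 replicate 3 and 12 without UNC2400 replicate 1. All clusters called in the fits with 9, 10, 11 and 12 were 3559, 2914, 4113 and 3674, against 6154 with all arrays. NKX1-1, PBX2, PBX3, TGIF1, LDB1, TLE1, TLE5 and SATB1, 8 of the 19, were called whichever array was left out, and of these TGIF1 was not called with the block. The causes were not tested.

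Differences close to 0 changed sign with 1 array left out, between -0.0235 and 0.0186 for MEIS2, -0.0351 and 0.0109 for SIX4 and -0.0359 and 0.0812 for SIX3, which was also at -0.0032 with cyclic loess.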
